A study of Homo sapiens with 8 samples.

Results

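Kallikrein-related peptidases were examined by RNA-seq in 2 human breast epithelial cell lines, MCF10A and DCIS.COM. The genes were chosen by symbol, as the rows of the expression table named KLK5, KLK6, KLK7, KLK8, KLK10 or KLK11. Of these 6 genes, 5 have a row among the 13842 genes of the table, and KLK11 was not analysed here. None of 11 other listed kallikrein genes (KLK1, KLK2, KLK3, KLK4, KLK9, KLK12, KLK13, KLK14, KLK15, KLKB1 and KLKP1) is in the table analysed here.

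MCF10A is an immortalized, non-tumorigenic mammary epithelial line, and DCIS.COM is a line of the same origin that was obtained from a xenograft of HRAS-transformed MCF10A cells and forms lesions like ductal carcinoma in situ. Each line had been stably transduced with the lentiviral vector pLOC carrying MALINC1, a long noncoding RNA, or with pLOC-empty, and selected with blasticidin, so that all cells carried a vector. The sources used here do not say how many transduced populations each group had. MALINC1 and the history of a population therefore cannot be told apart. There were 2 libraries in each of 4 groups, 8 in all, made from subconfluent plates, with no time course. The 2 lines grew in different media: MCF10A received serum with EGF, hydrocortisone, insulin and cholera toxin, and DCIS.COM received serum without these additions, so that line and medium cannot be told apart in any comparison between the lines. Nothing in the labels says that the libraries of a group came from separate cultures, and p-values then measure only the spread between these libraries, which may be technical. The libraries held 20604377 to 37550457 reads on genes. The DCIS.COM pLOC-empty libraries were the shallowest, with 21532423 and 20604377, against 31906390 and 30563046 in DCIS.COM pLOC-MALINC1. By the chi-square of reads per degree of freedom over genes, the DCIS.COM pLOC-MALINC1 libraries differed most from each other (20.4, against 3.27 to 6.27 elsewhere). By the correlation of the deposited values across genes they did not, at 0.9969 against 0.9959 to 0.9967 in the other groups. RN7SL1 and RN7SL2 took 11.5% and 8.22% of the reads of these libraries, and their part in the chi-square was not tested. MALINC1 itself was at 1.25 ± 0.357 CPM (reads of the gene scaled to the size of the library, mean ± SD, n = 2) in MCF10A pLOC-empty and at 12.5 ± 1.05 CPM in MCF10A pLOC-MALINC1. In DCIS.COM it was at 1.25 ± 0.146 CPM and 21.8 ± 3.76 CPM. All 9 listed epithelial and basal markers were in the table, with a summed level of 21125 to 28677 CPM in MCF10A and of 6378 to 6766 CPM in DCIS.COM. Taken singly, they went both ways (calls are defined below). With pLOC-empty, 4 of the 9 were called higher and 5 lower in DCIS.COM, and with pLOC-MALINC1 2 higher and 5 lower. Of 13 listed fibroblast, endothelial and leukocyte markers, 3 were in the table, namely COL1A1, PECAM1 and CD14, and none exceeded 15.9 CPM in any library. COL1A1 fell with pLOC-MALINC1 in MCF10A (log2 -1.14), from 15.5 to 7.0 CPM. PECAM1, an endothelial marker, was at 6.06 to 7.21 CPM in DCIS.COM pLOC-empty and at 0.0874 to 0.177 CPM in DCIS.COM pLOC-MALINC1 (log2 -5.07, called), while CDH5 and VWF were not analysed here. The part of these markers in the results was not tested.

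Kallikrein-related peptidases are secreted serine proteases encoded by a single cluster on the long arm of chromosome 19, several of which are regulated by steroid hormones. They are made as inactive zymogens and activate each other in a cascade that, in stratified epithelia, ends in cleavage of the corneodesmosomes that hold the outermost cells together. KLK5 and KLK7 lead that cascade in the epidermis, LEKTI (encoded by SPINK5) inhibits it, and the trypsin-like members also cleave the receptor PAR2 (encoded by F2RL1). In the breast, altered levels of several members have been described in tumors.

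In GRCh37, the genome build used by the authors (hg19), the 5 genes lie on the minus strand of chromosome 19. KLK5 spans 51446559 to 51456349, KLK6 spans 51461887 to 51472929, KLK7 spans 51479724 to 51487355, KLK8 spans 51499263 to 51505967 and KLK10 spans 51515995 to 51523431. KLK7 and KLK8 are therefore next to each other, with KLK6 on one side and KLK9 and KLK10 on the other. The 200 bases before the outermost annotated start of KLK5 and of KLK7 are shown because these were the most abundant members, of which KLK5 was read in all 8 libraries and KLK7 was read deeply in MCF10A only. Both are read from GRCh37 on the minus strand, 5′ to 3′, at chr19:51456350-51456549 for KLK5 and chr19:51487356-51487555 for KLK7. Capitals mark CG dinucleotides, the sites where DNA can be methylated in these cells.
KLK5: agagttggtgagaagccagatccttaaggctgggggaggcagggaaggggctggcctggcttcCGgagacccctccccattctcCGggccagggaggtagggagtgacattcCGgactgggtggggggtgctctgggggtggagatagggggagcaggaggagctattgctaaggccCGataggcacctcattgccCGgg
KLK7: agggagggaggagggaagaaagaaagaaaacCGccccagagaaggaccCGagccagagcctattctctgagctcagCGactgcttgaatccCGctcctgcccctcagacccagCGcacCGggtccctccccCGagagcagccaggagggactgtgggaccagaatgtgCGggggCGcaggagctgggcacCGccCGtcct
The KLK7 stretch holds 11 CG dinucleotides and the KLK5 stretch 5, against 10 before KLK8, 6 before KLK6 and 5 before KLK10. Over 1480 protein-coding genes of chromosome 19 the median was 11, with quartiles of 5 and 18. DNA methylation was not measured in these libraries. RefSeq promoter windows of the GRCh38.p14 build ran from 250 bases before to 50 after a gene's start. They were available for KLK5, KLK6, KLK7, KLK10 and KLK11. Their starts differ from those of the 200-base stretches, and for KLK10 the window and the stretch do not overlap. The windows were searched on both strands for 4 motifs and held none of them, so no motifs overlapped. The TATA box, searched as TATAAA, is in 11.5% of 35116 promoters of the same length. The AP-1 site was searched as TGANTCA and is in 7.71% of them. The grainyhead-like site, AACCGGTT, is in 0.134%. A single arm of the steroid receptor element, searched as AGAACA, is in 14.8%, and the full element was not searched. The absence says only that these letters are not in these windows.

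KLK5, a trypsin-like protease, was the most abundant member in every group when levels were taken per length. Its level was 368 and 366 CPM with pLOC-empty and 229 and 208 CPM with pLOC-MALINC1 in MCF10A. In DCIS.COM it was 95 and 102 CPM with pLOC-empty and 259 and 281 CPM with pLOC-MALINC1. By mean level, the order ran from MCF10A pLOC-empty, the highest, through DCIS.COM pLOC-MALINC1 and MCF10A pLOC-MALINC1 to DCIS.COM pLOC-empty, the lowest. Against pLOC-empty, pLOC-MALINC1 thus went with a lower level in MCF10A and a higher level in DCIS.COM.

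KLK6, a trypsin-like protease also known as neurosin, was low and close to level in 3 of the groups. It was at 5.24 and 4.96 CPM in MCF10A pLOC-empty and at 4.51 and 3.48 CPM in MCF10A pLOC-MALINC1. In DCIS.COM it was at 4.2 and 5.63 CPM with pLOC-empty and at 11.8 and 13.5 CPM with pLOC-MALINC1. Only the DCIS.COM pLOC-MALINC1 libraries stood above the rest, and the range of DCIS.COM pLOC-empty overlapped that of each MCF10A group.

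KLK7, the chymotrypsin-like protease of the epidermal cascade, divided the lines. MCF10A held 202 and 211 CPM with pLOC-empty and 253 and 224 CPM with pLOC-MALINC1, which is 4758 to 9088 reads per library. DCIS.COM pLOC-empty held 0 reads in both libraries, the floor of the table. For bounds on folds, a group with at most 3 reads in every library was taken at 3 reads per library. DCIS.COM pLOC-MALINC1 held 3 and 8 reads, or 0.0874 and 0.236 CPM. Over both libraries these 11 reads have an exact 95% Poisson interval of 5.49 to 19.7 reads, and 0 reads have an upper bound of 3.69, intervals that cover counting error only.

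KLK8, a trypsin-like protease also known as neuropsin, had the same division at a lower level. It was at 12.3 and 13.6 CPM in MCF10A pLOC-empty and at 9.47 and 9.97 CPM in MCF10A pLOC-MALINC1. In DCIS.COM it had 0 reads in both pLOC-empty libraries and 3 and 4 reads, or 0.0874 and 0.118 CPM, in the pLOC-MALINC1 libraries. Those 7 reads have an interval of 2.81 to 14.4 reads. KLK7 and KLK8 were the members at the floor, and only in DCIS.COM pLOC-empty, while KLK5, KLK6 and KLK10 had at least 71 reads in every library.

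KLK10, a member lowered in many breast tumors, changed in the same direction in both lines. It was at 8.66 and 8.41 CPM in MCF10A pLOC-empty and at 13.1 and 12.4 CPM in MCF10A pLOC-MALINC1. DCIS.COM held 4.06 and 3.39 CPM with pLOC-empty and 7.46 and 6.95 CPM with pLOC-MALINC1. Both pLOC-MALINC1 groups had a higher mean than the pLOC-empty group of their own line.

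**Figure D1:**
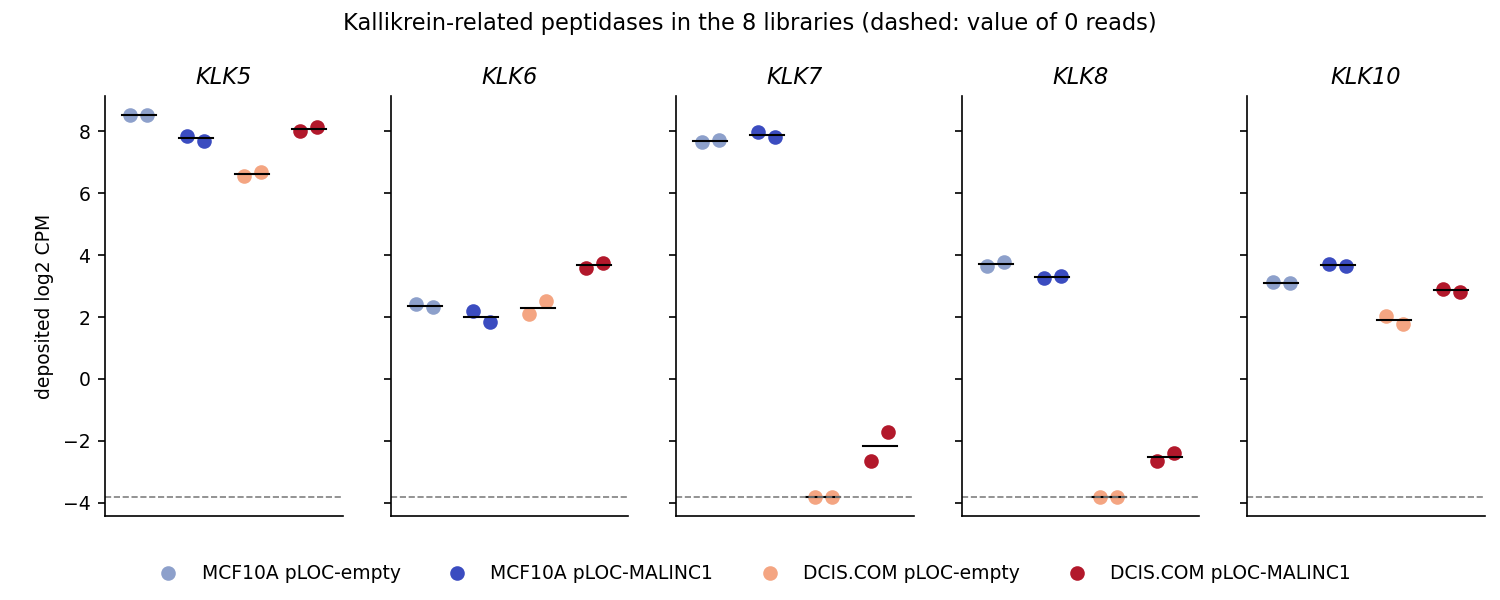
Deposited log2 CPM (vertical axis) of the 5 kallikrein genes in each of the 8 libraries, as points coloured by group, with the group mean as a black line and the value of 0 reads (-3.81) as a dashed line. KLK7 and KLK8 lie on the dashed line in DCIS.COM pLOC-empty and just above it in DCIS.COM pLOC-MALINC1, whereas KLK5, KLK6 and KLK10 are above it in all libraries.

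Per kilobase of annotated exon, the summed level of the 5 genes was 318 ± 1.80 CPM per kb (mean ± SD, n = 2) in MCF10A pLOC-empty, 240 ± 17.6 in MCF10A pLOC-MALINC1, 63.1 ± 3.47 in DCIS.COM pLOC-empty and 172 ± 9.79 in DCIS.COM pLOC-MALINC1. KLK5 made up 69.8% of that sum in MCF10A pLOC-empty and KLK7 26.5%. With pLOC-MALINC1 in MCF10A, the share of KLK5 was 55.0% and that of KLK7 40.5%. In DCIS.COM, KLK5 made up 94.5% and 95.1% of the sum with pLOC-empty and pLOC-MALINC1, and KLK7 made up 0% and 0.0379%. KLK8, KLK6 and KLK10 stayed at or below 6.97 CPM per kb in every group.

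**Figure D2:**
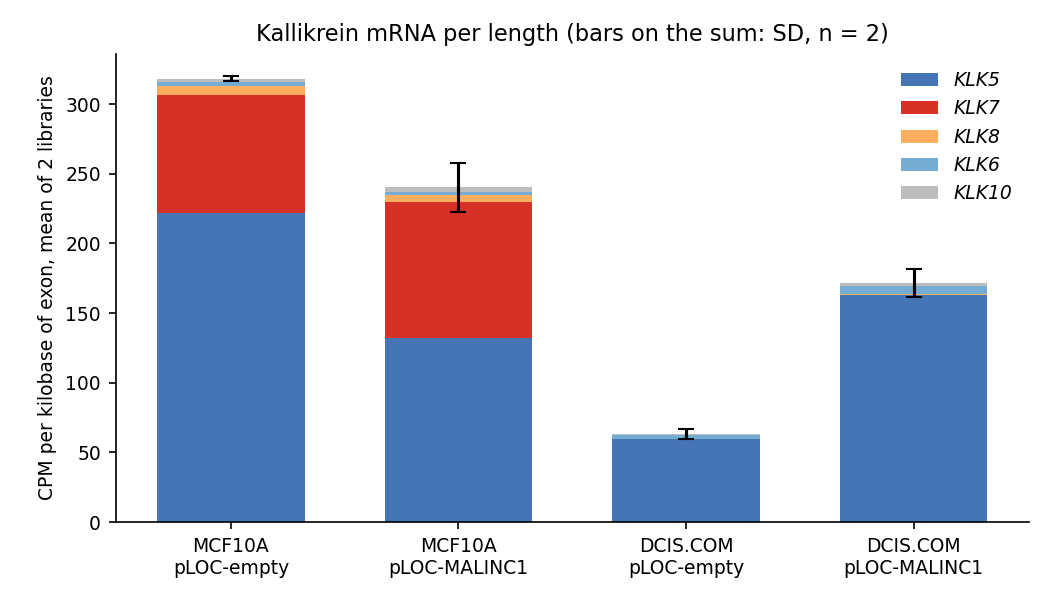
Mean CPM per kilobase of exon (vertical axis) of the 5 kallikrein genes, stacked, in the 4 groups of 2 libraries, with the SD of the sum as a black bar. Nearly all of the height is KLK5 and KLK7 in MCF10A and KLK5 alone in DCIS.COM.

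Responses to the vector, meaning pLOC-MALINC1 against pLOC-empty, were tested with limma across all 13842 genes of the table, with Benjamini-Hochberg adjustment. A gene was called when its adjusted p was under 0.01 and its change over 2-fold. Fold changes are on the deposited log2 CPM scale, which carries a mean prior count of 2 reads and understates changes of genes with few reads. In MCF10A, 0 of the 5 kallikreins were called, where 5.5% of all genes were called. KLK5 fell by 0.75 on the log2 scale (standard error 0.051, adjusted p = 1.78e-07), which is less than 2-fold. KLK10 rose by 0.58 (standard error 0.11, adjusted p = 0.00104), also less than 2-fold. With any 1 MCF10A library left out, the log2 fold change of KLK10 was 0.54 to 0.61. Its pass did not hold in each of these fits, which leave a library alone in its group. These 2 of 5 members passed the adjusted p at any fold, 1 up and 1 down, against 39.6% of all genes. At any fold, a share of that size is close to the background.

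The other members of MCF10A did not pass. KLK6 had a log2 fold change of -0.36 (95% confidence interval -0.71 to -0.0067, adjusted p = 0.0804) and KLK8 one of -0.41 (-0.86 to 0.035, adjusted p = 0.110). KLK7 had a log2 fold change of 0.21 (-0.29 to 0.70, adjusted p = 0.474). The fit shares 1 spread over all 8 libraries, in which the DCIS.COM libraries of KLK7 and KLK8 hold 0 to 8 reads. Fitted on the MCF10A libraries alone, the standard error for KLK7 was 0.069 in place of 0.23 (adjusted p = 0.0762) and that for KLK8 was 0.084 in place of 0.21 (adjusted p = 0.0233). With voom weights on the recovered reads, KLK7 (adjusted p = 0.000985) and KLK8 (adjusted p = 0.000565) passed at any fold with changes of 0.21 and -0.41, still under 2-fold.

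In DCIS.COM, 4 of the 5 kallikreins were called, all of them upward, where 4.53% of all genes were called. KLK5 rose 2.73-fold (log2 1.45, standard error 0.051, adjusted p = 5.90e-10). KLK6 rose 2.57-fold (log2 1.36, standard error 0.16, adjusted p = 2.41e-05). KLK10 rose 1.92-fold (log2 0.94, standard error 0.11, adjusted p = 2.71e-05), just short of the fold that a call needs. Without DCIS.COM pLOC-empty replicate 1, its log2 fold change was 1.07 and it was called. All 5 passed the adjusted p at any fold, against 33.2% of all genes. With either of the DCIS.COM pLOC-MALINC1 libraries left out, the log2 fold change was 1.39 and 1.51 for KLK5, 1.27 and 1.46 for KLK6 and 0.89 and 0.99 for KLK10.

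The other calls in DCIS.COM, KLK7 and KLK8, rest on few reads. Their fitted log2 fold changes were 1.63 (adjusted p = 9.62e-05) and 1.28 (adjusted p = 0.000282), and both depend on the prior count because the pLOC-empty libraries had 0 reads. The bound of 3 reads per library is 0.142 CPM in DCIS.COM pLOC-empty. With pLOC-MALINC1, KLK8 had a mean of 0.103 CPM, below that bound, and KLK7 one of 0.162 CPM. For KLK7, replicate 1, at 0.0874 CPM, was also below the bound, so that no fold is given for either gene. Over both libraries, the counting interval of KLK7 with pLOC-MALINC1 (0.0806 to 0.289 CPM) overlapped the upper bound of 0 reads with pLOC-empty (0.087 CPM). Such an overlap is not a test of a difference, and no counting test was run between these groups. A pseudocount of 0.5 CPM brought the fitted changes to 0.40 and 0.27 and left KLK5 and KLK6 as the called members. The pLOC-MALINC1 libraries of DCIS.COM were also the deeper ones, and the part of depth in these few reads was not tested.

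The response differed between the lines for 4 of the 5 members by the interaction term of the same fit, where 9.2% of all genes were called and 35.9% passed at any fold. For KLK5 the response in DCIS.COM exceeded that in MCF10A by 2.20 on the log2 scale (standard error 0.073, adjusted p = 3.15e-10), with a fall in MCF10A and a rise in DCIS.COM. For KLK6 the difference was 1.72 (standard error 0.23, adjusted p = 5.69e-05). For KLK10 it was 0.37 (95% confidence interval 0.018 to 0.72, adjusted p = 0.0757), which did not pass. For KLK7 (1.43, adjusted p = 0.00299) and KLK8 (1.70, adjusted p = 0.000436) the difference rests on the same few reads in DCIS.COM, and both calls were lost with a pseudocount of 0.5 CPM. The call of KLK7 was also lost when any 1 library other than DCIS.COM pLOC-MALINC1 replicate 1 was left out (log2 0.95 to 1.51).

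**Figure D3:**
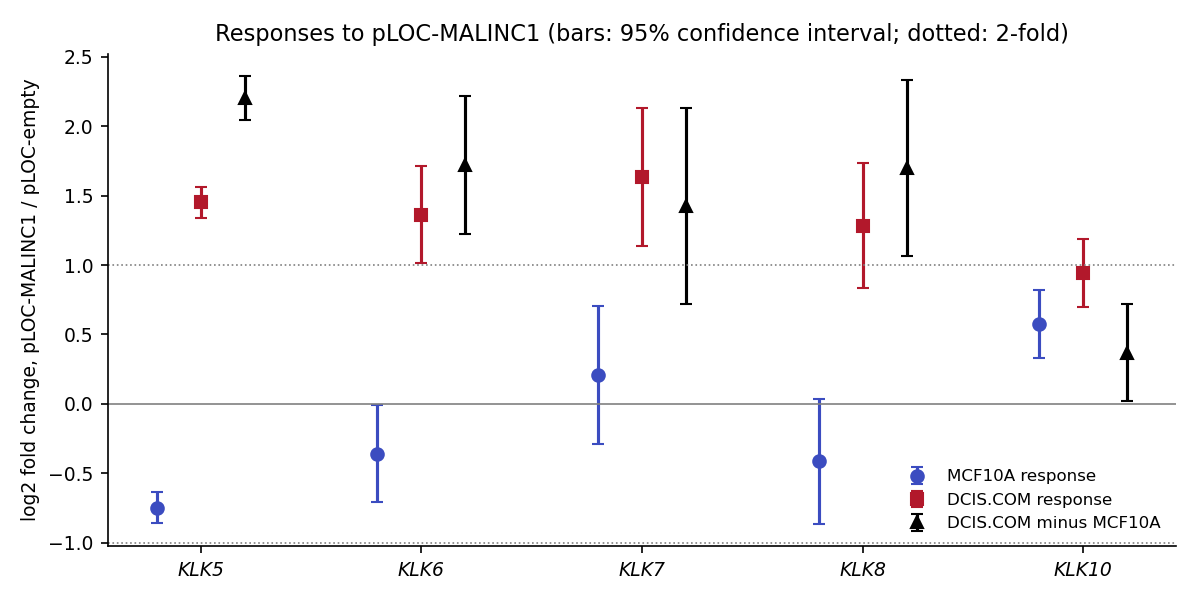
Log2 fold change with pLOC-MALINC1 against pLOC-empty (vertical axis) of the 5 kallikrein genes in MCF10A (blue circles) and DCIS.COM (red squares), and the difference of these responses (black triangles), from 2 libraries per group, with 95% confidence intervals as bars and 2-fold changes as dotted lines. KLK5 falls by 0.75 in MCF10A and rises by 1.45 in DCIS.COM, and KLK10 is above 0 in both lines.

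The lines themselves were then compared. With pLOC-empty, 4 of the 5 kallikreins were lower in DCIS.COM than in MCF10A and 0 were higher, where 28.6% of all genes were called and 73.9% passed at any fold. KLK7 was at least 1458-fold lower and KLK8 at least 91.8-fold lower, both against the bound of 3 reads per DCIS.COM library. These bounds were not tested. The limma fit gave log2 -11.5 for KLK7 (adjusted p = 2.03e-13) and -7.52 for KLK8 (adjusted p = 3.54e-12), values that depend on the prior count. KLK5 was 3.72-fold lower (log2 -1.90, standard error 0.051, adjusted p = 3.23e-12) and KLK10 2.28-fold lower (log2 -1.19, standard error 0.11, adjusted p = 6.26e-07). KLK6 did not differ beyond the spread between libraries (log2 -0.067, 95% confidence interval -0.42 to 0.28, adjusted p = 0.709). In bulk libraries, fewer cells that make an mRNA and less of it per cell cannot be told apart.

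With pLOC-MALINC1, 3 of the 5 were called between the lines, 1 higher and 2 lower in DCIS.COM, where 26.6% of all genes were called. All 5 passed at any fold, as did 73% of all genes. KLK6 was 3.15-fold higher in DCIS.COM (log2 1.65, standard error 0.16, adjusted p = 8.47e-07). KLK7 was lower by the fitted difference (log2 -10.07, adjusted p = 7.41e-13), and its 15014 reads in MCF10A and 11 in DCIS.COM give a ratio of CPM of 1492 with a counting interval of 834 to 2989. KLK8 was lower as well (log2 -5.82, adjusted p = 4.50e-11), and its 604 and 7 reads give a ratio of 94.3 with an interval of 45.5 to 236. KLK5 was slightly higher in DCIS.COM (log2 0.30, standard error 0.051, adjusted p = 0.000132) and KLK10 lower (log2 -0.82, standard error 0.11, adjusted p = 2.23e-05), both under 2-fold. The comparisons share libraries with those of the vector, so the values of each stand side by side.

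The lower level of KLK7 and KLK8 in DCIS.COM was not shared along the whole stretch of chromosome. Their starts lie 18.6 kb apart, and the start of KLK6, at a like level in both lines with pLOC-empty, lies 14.4 kb from that of KLK7 on the other side. The start of KLK10 lies 36.1 kb and that of KLK5 31.0 kb from that of KLK7. Both of these genes were also lower in DCIS.COM with pLOC-empty, though by less (log2 -1.19 and -1.90). Of 6 other genes of the table within 300000 bases of the cluster, 4 were higher in DCIS.COM with pLOC-empty and 5 with pLOC-MALINC1, and 0 were lower in either comparison. Of all genes, 15.6% and 14.4% were called higher in DCIS.COM in these comparisons. Among them, ETFB, an electron transfer flavoprotein subunit, was at 36.6 CPM in MCF10A and 114 CPM in DCIS.COM with pLOC-empty (log2 1.64), and CTU1, a tRNA-modifying enzyme, was at 3.58 and 5.85 CPM (log2 0.70, under 2-fold). None of the 6 was called in response to the vector in either line.

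**Figure D4:**
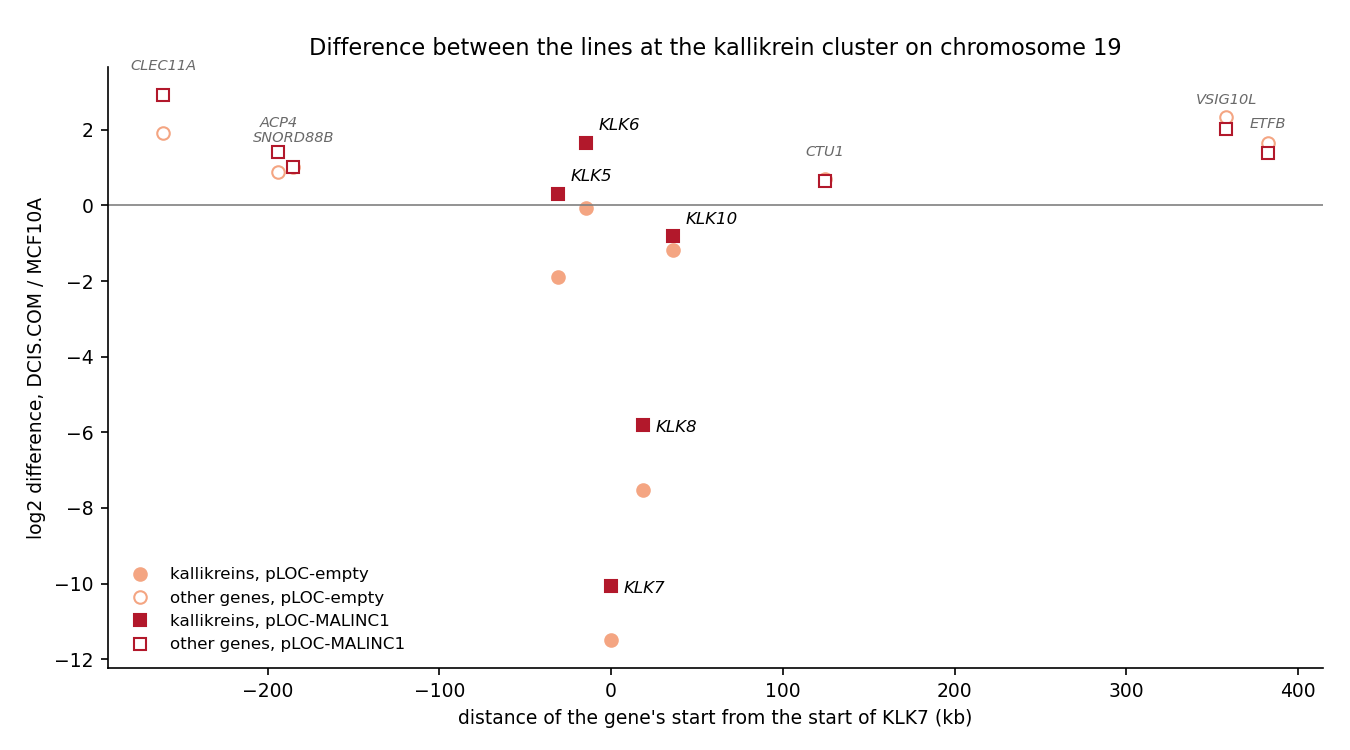
Log2 difference between DCIS.COM and MCF10A (vertical axis) against the distance of each gene's start from that of KLK7 in kb (horizontal axis), for the 5 kallikrein genes (filled) and the 6 other genes of the table near the cluster (open), with pLOC-empty (circles) and pLOC-MALINC1 (squares). KLK7 and KLK8 lie far below their neighbours on both sides, and their depth on this scale depends on the prior count.

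Reads of some members can come from overlapping genes, since the strand setting of the counting is not given in the sources used here. KLK8 shares 204 exonic nt (10.9% of its exonic length) with KLK9 and 747 nt (40.1%) with a readthrough gene on the same strand. Antisense lncRNA genes overlap 202 exonic nt of KLK5, 401 nt of KLK6 and 240 nt of KLK10. KLK5, KLK6, KLK7 and KLK10 share no stretch longer than 26 nt with a transcript of another kallikrein gene, against reads of 76 nt. For KLK8 only the longest stretch, that with KLK9, was determined.

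The genes whose pattern over the 8 libraries was closest to each member were found by the root mean square difference of log2 CPM centred on each gene's mean. For KLK5 they were MARCKSL1 (0.19), N4BP3 (0.19) and H2BC14 (0.20), and for KLK6 they were PDE4B (0.15), KIAA1549L (0.16) and SLITRK6 (0.23). For KLK10 they were ZNF485 (0.15), MANEAL (0.16) and TRIM35 (0.17). KLK8 was closest to LINC01133 (0.30), FPR1 (0.31) and POF1B (0.39), and KLK7 to H4C13 (0.66), MT1E (0.71) and VSTM2L (0.86), a looser match. These 3 genes were at a mean of 0 CPM in both DCIS.COM groups. Among the members themselves, KLK5 and KLK10 were the nearest pair (0.52). KLK7 and KLK8 differed by 2.08, with spans between groups of 11.71 and 7.52 on the log2 scale. Both spans start from 0 reads in DCIS.COM pLOC-empty, so they rest on the MCF10A level and the prior count.

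The inhibitors of the kallikreins were followed next. Of 20 listed, 12 are in the table. In MCF10A, 3 rose with pLOC-MALINC1 and 1 fell, with a median log2 fold change of 0.039. SPINK5, which encodes the inhibitor LEKTI, rose from 2.65 ± 0.246 to 12.3 ± 1.5 CPM (log2 2.18, standard error 0.16, adjusted p = 3.52e-07). The others that rose were the serpins SERPINA1 (log2 2.61) and SERPINA3 (1.15), and the one that fell was SERPINA5, protein C inhibitor (-1.25). In DCIS.COM, 1 was called upward and 2 downward, with a median of -0.33. SPINK5 was at 3.52 ± 0.0913 and 2.83 ± 0.590 CPM there (log2 -0.32, adjusted p = 0.129), and its response differed between the lines (log2 -2.50, adjusted p = 2.53e-06). SERPINA1 fell in DCIS.COM from 167 ± 6.71 to 4.42 ± 0.0251 CPM (log2 -5.21, standard error 0.11, adjusted p = 7.80e-12). WFDC2, a secreted whey acidic protein family member, fell from 1.04 CPM to at most 1 read per library. The upward call was SPINK6, a kallikrein inhibitor of the skin, at only 0.0233 and 0.147 CPM in DCIS.COM, against 13.4 CPM in MCF10A pLOC-empty. Over all genes the median log2 fold change was 0.0 in MCF10A and 0.0089 in DCIS.COM. Of all 13842 genes, 414 were called upward and 347 downward in MCF10A, and 200 and 427 in DCIS.COM. These counts are also the background of the vector responses of the lists below.

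Among 15 listed proteases that activate kallikreins or act beside them, 11 are in the table, and 3 rose and 0 fell in MCF10A, whereas 0 were called in DCIS.COM. The medians were 0.29 and 0.072. Those that rose in MCF10A were PLAT, tissue plasminogen activator (log2 2.18), TMPRSS4 (1.71) and TMPRSS11D (1.38), both transmembrane serine proteases. ST14, which encodes matriptase, an activator of the kallikrein cascade, was at 389 ± 1.09 and 421 ± 23.2 CPM in MCF10A and at 310 ± 6.40 and 364 ± 2.20 CPM in DCIS.COM, without a call in any comparison. Between the lines with pLOC-empty, 7 of the 11 were lower in DCIS.COM and 1 was higher. Of all 13842 genes, 1806 were called lower and 2153 higher in that comparison. TMPRSS11E, another transmembrane serine protease, was at 66.7 CPM in MCF10A and 0.329 CPM in DCIS.COM with pLOC-empty. TMPRSS11D had 0 reads in DCIS.COM pLOC-empty, and the higher one was PLAT, at 7.09 and 268 CPM.

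Of 25 listed substrates and receptors, 20 are in the table. In MCF10A, 4 rose and 4 fell, and in DCIS.COM 1 rose and 2 fell, with median log2 fold changes of 0.23 and 0.22. F2RL1, the receptor PAR2, rose from 50.9 ± 5.58 to 103 ± 6.10 CPM (log2 1.02, standard error 0.066, adjusted p = 1.11e-07), and in DCIS.COM it was at 32.6 ± 0.398 and 30.4 ± 0.390 CPM (log2 -0.10, adjusted p = 0.247). The response of F2RL1 differed between the lines (log2 -1.12, adjusted p = 1.15e-06). Of the corneodesmosome genes, DSG1 (desmoglein 1) rose in MCF10A from 0.598 to 2.29 CPM and had 0 reads in all 4 DCIS.COM libraries, and CDSN (corneodesmosin) fell from 2.45 to 1.19 CPM (log2 -1.02). DSC1 has no row in the table analysed here. The matrix genes FN1 (log2 -2.05) and COL4A1 (-1.27) and the growth factor carrier IGFBP3 (-1.86) also fell, and the adhesion molecule L1CAM rose (1.22). NRG1, a growth factor, was called upward in MCF10A at 0.0566 and 0.352 CPM. In DCIS.COM, IL1B, a cytokine, fell from 13 to 2.23 CPM (log2 -2.50), LAMA3, a laminin chain, fell (log2 -1.0) and FLG, filaggrin, rose from 1.11 to 3.98 CPM (log2 1.80).

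Transcription factors that have been tied to kallikrein genes were in the table in 29 of 31 cases. With pLOC-MALINC1, 5 rose and 1 fell in MCF10A, and 2 rose and 2 fell in DCIS.COM, with medians of -0.041 and 0.20. GRHL3, a grainyhead-like factor of the epidermal barrier, rose in both lines, from 4.50 ± 0.271 to 12.3 ± 1.97 CPM in MCF10A (log2 1.43, adjusted p = 5.83e-06) and from 2.50 ± 0.292 to 7.32 ± 0.899 CPM in DCIS.COM (log2 1.52, adjusted p = 4.35e-06), with a difference between the responses of 0.091 (adjusted p = 0.746). TP63, the basal epithelial regulator, rose in MCF10A from 4.92 ± 0.450 to 40.9 ± 1.11 CPM (log2 3.04, adjusted p = 1.08e-11), and in DCIS.COM it was at 56.6 ± 1.13 and 49.6 ± 0.598 CPM. The AP-1 subunits FOS (log2 1.63) and FOSL1 (1.76) also rose in MCF10A, and CEBPA was called upward at 0 and 0.188 CPM. In DCIS.COM, OVOL1 rose (log2 1.01) and FOSL2 (-2.12) and MAF (-1.04) fell. KLF4, a barrier factor, was at 54.5 ± 0.677 CPM in MCF10A pLOC-empty and 4.6 ± 0.425 CPM in DCIS.COM pLOC-empty (log2 -3.55, adjusted p = 4.82e-13). NR3C1, the receptor of the hydrocortisone that only the MCF10A medium held, was at 154 ± 3.70 and 108 ± 2.81 CPM in the same groups (log2 -0.51, under 2-fold).

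Genes of late keratinocyte differentiation, the program in which KLK5 and KLK7 act in skin, were in the table in 23 of 31 cases. With pLOC-MALINC1, 6 rose and 0 fell in MCF10A and 7 rose and 0 fell in DCIS.COM, with median log2 fold changes of 0.63 and 0.53. In MCF10A the 6 were S100A8 (log2 2.48), SPRR1B (2.28), S100A9 (1.89), SPRR1A (1.55), CSTA (1.45) and SPRR2D (1.25). In DCIS.COM the 7 included KRT13, a keratin of stratified mucosa, from 2.05 ± 0.133 to 39.6 ± 2.90 CPM (log2 4.22, adjusted p = 6.95e-12), and KRT4, its partner (log2 3.05). The others were SPRR1A (log2 2.03), FLG (1.80), SPRR3 (1.43, at 0.164 and 0.542 CPM), SPRR1B (1.12) and SPRR2A (1.05). Between the lines with pLOC-empty, 16 of the 23 were lower in DCIS.COM and 3 were higher, with a median of -1.59 against 0.031 over all genes. Of all 13842 genes, 1806 were called lower and 2153 higher there. IVL, involucrin, was at 90.3 ± 1.29 CPM in MCF10A and 4.51 ± 0.0409 CPM in DCIS.COM, and TGM1, transglutaminase 1, was at 51.8 ± 2.95 and 0.613 ± 0.0566 CPM. With pLOC-MALINC1 the counts were the same, 16 lower and 3 higher, and the median was -2.08, where 1687 of all genes were called lower and 1999 higher.

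**Figure D5:**
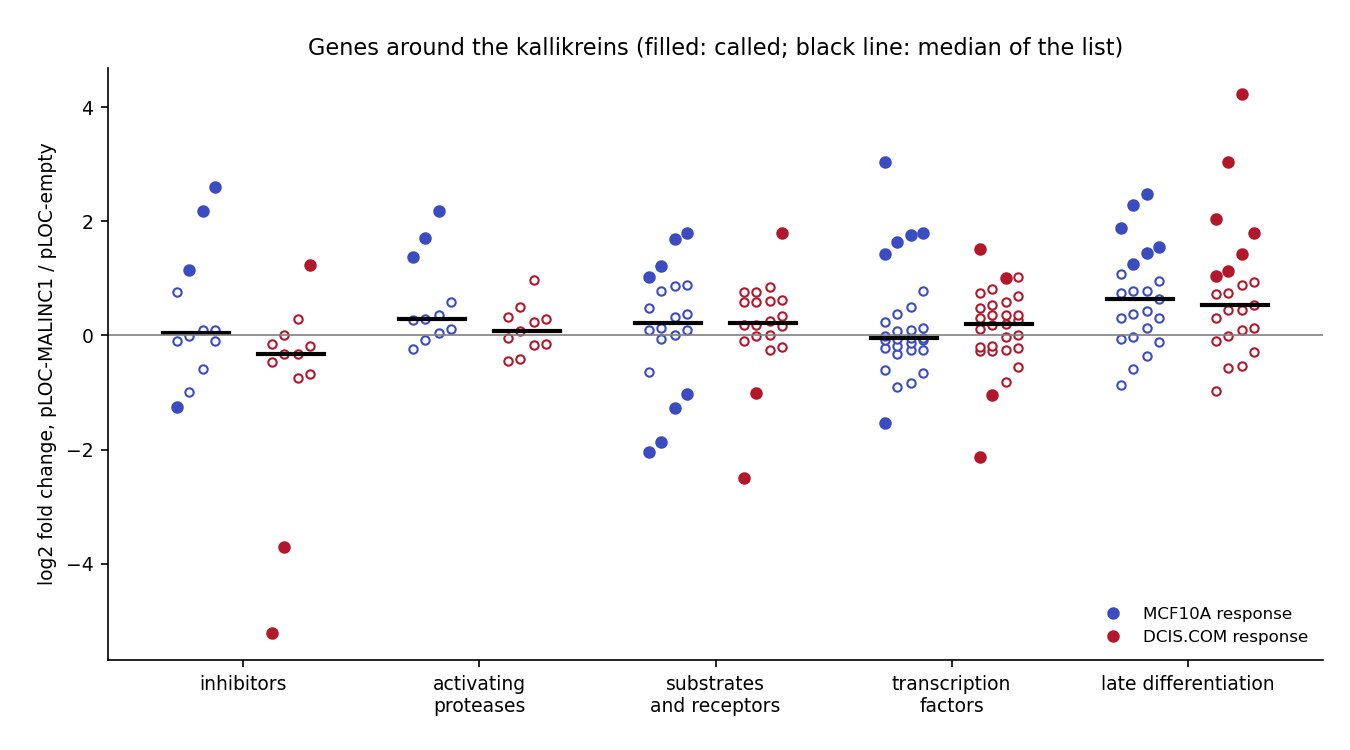
Log2 fold change with pLOC-MALINC1 against pLOC-empty (vertical axis) of the genes of 5 lists in MCF10A (blue) and DCIS.COM (red), 1 point per gene from 2 libraries per group, filled where the gene was called, with the median of each list as a black line. The late differentiation genes have a median above 0 in both lines (0.63 and 0.53), with no called gene below 0.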

How the data were processed

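The study sequenced RNA of transduced MCF10A and DCIS.COM cells as 76 nt paired-end reads (ScriptSeq v2), and the authors aligned them to hg19 with Rsubread, counted UCSC genes with featureCounts and normalized with edgeR. The deposited values are log2 CPM per gene and library. The strand setting, the filter on low values and the versions of these tools are not given in the sources used here. The deposited values were found to be whole reads plus a prior count (100% within a tolerance of 0.1 reads; mean prior 2, range 1.49 to 2.56 reads), and levels are given as CPM with the prior count removed, where 1 read is worth 0.0279 to 0.0477 CPM. RN7SL1 and RN7SL2 took 8.22 to 15.7% of reads.

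All rows entered a linear model of 4 group means on these deposited values, without a further filter (limma 3.58.1, R 4.3.3, eBayes with a trend, 7.98 prior and 4 residual degrees of freedom). The steps were tested on simulated reads, with 1 spread for all genes and the same base level of a gene in all groups. That test does not cover genes at the floor in 1 line only, such as KLK7 and KLK8. Replicate numbers did not pair the libraries (correlations of deviations -0.0985 to 0.0411). Of the genes, 13024 (94.1%) were placed in GRCh37 by symbol with GENCODE annotation, and 346 rows have no symbol. The kallikreins and gene lists were chosen with earlier results of these data known. Named are all kallikreins, list genes that were called in response to the vector or define a list, examples of list genes for the line comparisons, and, for each kallikrein, the 3 genes with the nearest pattern. Alternatives changed the pseudocount, filter, scaling, model, design, thresholds and libraries. Figures and tables used Python 3.11.15, numpy 2.4.6, pandas 2.3.3, scipy 1.17.1 and matplotlib 3.10.9. A planned comparison of protein sequences was not made. Of the listed transcription factors, 1 result is not reported here.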

Additional observations from a re-analysis of the deposited data

Results flagged for a closer look

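The response to pLOC-MALINC1 differed between DCIS.COM and MCF10A, by the interaction term of the limma fit, for KLK5 (2.20 on the log2 scale), KLK6 (1.72), KLK8 (1.70) and KLK7 (1.43). The values for KLK7 and KLK8 rest on 3 to 8 reads per DCIS.COM pLOC-MALINC1 library and on 0 in pLOC-empty.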

How the results depend on the processing

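The changes of KLK5, KLK6 and KLK10 within the lines kept their direction under all 21 alternatives. Several of these, such as the filter, the thresholds and the replicate block, leave the fold change itself as it was. KLK7 and KLK8 kept their direction too. In DCIS.COM, 0 reads with pLOC-empty left hardly any other direction possible, so for these 2 genes it says nothing about stability. A pseudocount of 0.5 or 1 CPM left 2 kallikreins called in DCIS.COM and 2 in the difference of the responses, and so did a test against 1.5-fold for that difference. With 1 CPM, 416 genes of the table were called in MCF10A and 368 in DCIS.COM. At any fold, 2 kallikreins passed in MCF10A and 5 between the lines with pLOC-MALINC1, and the genes that passed were 5485 in MCF10A, 4592 in DCIS.COM, 4972 for the difference, 10230 between the lines with pLOC-empty and 10102 with pLOC-MALINC1. Quantile normalization brought KLK10 in DCIS.COM over 2-fold (1.10 on the log2 scale) and KLK8 under it (0.97), and the cause was not tested. KLK7 in DCIS.COM was not called with voom weights (log2 2.76, adjusted p = 0.0174) or on its own groups alone (log2 1.63, adjusted p = 0.0196), without a smaller change. Library sizes without RN7SL1 and RN7SL2 moved the median of all genes by 0.11 between the lines with pLOC-empty and by 0.18 with pLOC-MALINC1, and turned KLK6 with pLOC-empty from -0.067 to 0.037, neither called. Leaving out 1 library in turn gave -0.28 to 0.14 for KLK6 there, above 0 without DCIS.COM pLOC-empty replicate 1 only, and 4 to 5 called kallikreins in DCIS.COM, 3 to 4 for the difference and 0 in MCF10A. A library left alone in its group is assumed to vary like the others. With a replicate block, 0, 4, 4, 4 and 3 kallikreins were called in the order of the text, as without it. Each comparison on its own groups gives no difference of responses, and a fit without a filter is the one reported. The depth limits KLK7 and KLK8 in DCIS.COM, where 3 reads are 0.0874 to 0.143 CPM.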
